A study of Mus musculus with 10 samples.

Results

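RNA levels of 33 genes of glutamatergic transmission were examined in mouse somatosensory cortex after deletion of Nsd1, the gene of an enzyme that methylates histone H3 at lysine 36. Its 22 receptor genes were 4 AMPA, 4 kainate, 7 NMDA and 1 delta receptor subunit genes and 6 metabotropic receptor genes. Its partners were 2 cornichon and 2 Neto auxiliary subunit genes and 7 scaffold genes of the PSD-95 and SHANK families. Members were chosen by name, with earlier results of these data known, and Grik3 was set aside from them as a cortical layer marker. All 33 were found among the 23283 names of the 2.5-month table and among the 54427 names of the 3-month table. In the 2.5-month table Cnih2 shared a row with Rab1b and Grik2 shared one with C130030K03Rik, so those values belong to the joined loci.

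The 10 libraries formed 4 groups. At 2.5 months, 3 Nsd1Nex-cKO libraries were set against 3 controls, of which replicates 1 and 2 were Nsd1fl/+ and replicate 3 was Nsd1fl/fl. At 3 months, 2 Nsd1Camk2a-cKO libraries were set against 2 Nsd1fl/+ controls. Nex-Cre, from the Neurod6 locus, is active in excitatory cortical neurons from soon after their last division, and Camk2a-Cre acts in excitatory neurons later. Other cell types of the tissue keep the gene in both models. The labels do not say whether controls carried Cre or whether each replicate came from its own animal, so p-values measure the spread between these samples.

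AMPA, kainate and NMDA receptors are tetrameric ion channels opened by glutamate, and the choice of subunits sets their calcium entry, speed and voltage dependence. Metabotropic receptors act through G proteins, those of group II and group III mostly lowering transmitter release and those of group I exciting the postsynaptic cell. Auxiliary subunits change the trafficking and gating of the channels, and PSD-95 and SHANK proteins hold them in the postsynaptic density.

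Most members differed little between knockout and control cortex. In the Nex model 1 of 32 tested members, Grm4, passed the test, and it fell, where 4.06% of 12528 genes did. Neto1 and Grm2 had knockout means 15.4% to 20.1% below the control means in both models, with groups that did not overlap, but passed in neither model alone. Gria4 did not overlap in either model and did not pass. Lower groups without overlap in both models were found for 3 of 30 members, where 5% of all genes had them. In the Camk2a model no member passed, where 0% of 12919 genes did. A second, weaker row of Grin2a and of Grin2d in the 2.5-month table fell in a fit added after the values were seen. The main rows of both genes did not pass. The second Grin2d row reached the minimum of FPKM 1 only in its controls, and both calls were lost when some single libraries were left out.

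Depth of the 2.5-month libraries was unknown. For the 3-month libraries, 16901717 to 20074933 reads were recovered from FPKM and gene length. These totals cover the listed genes only and are not the full depth. The targeted gene could be read cleanly only at 3 months, where Nsd1 stood at 5.61 and 8.87 FPKM (fragments per kilobase, scaled to library size) in controls and 4.31 and 4.99 in knockouts, with an adjusted p of 0.685 by limma. At 2.5 months its row was joined with Prelid1 and read 125 to 141 FPKM in controls and 91.0 to 118 in knockouts, with an adjusted p of 0.0863 by limma. Excitatory neuron markers were present throughout, summing to at least 421 FPKM over 10 genes in every library, and 5 cerebellar markers summed to at most 0.154 FPKM. In the Nex model 10 layer 6 and subplate markers summed to 87.8 to 89.4 FPKM in controls and 54.4 to 76.0 in knockouts, and 8 oligodendrocyte markers to 1663 to 1787 and 1338 to 1470. Sums without overlap in that model were also those of 7 hippocampal markers, at 24.7 to 25.9 FPKM in controls and 51.6 to 70.1 in knockouts. The same held for 6 thalamic markers, at 25.4 to 27.5 and 31.1 to 31.3, and 7 endothelial markers, at 88.0 to 106 and 74.1 to 84.1. Of the 10 excitatory markers 5 fell and 1 rose in that model. Their sum was 786 to 831 FPKM in controls and 659 to 792 in knockouts. Those that fell were Tbr1, Neurod6, Rorb, Fezf2 and Bcl11b, and Neurod2 rose. Neurod6 is the locus of Nex-Cre, and the part of the driver allele in its fall was not tested. In the Camk2a model, layer 6 and subplate markers summed to 55.8 to 59.1 FPKM in controls and 51.9 to 53.3 in knockouts, without overlap. Thalamic sums there were 22.3 to 24.3 and 21.7 to 22.0, also without overlap. Endothelial sums did not overlap either, at 57.0 to 58.5 and 62.4 to 74.8, nor did oligodendrocyte precursor sums, at 66.3 to 71.1 and 72.1 to 72.9. The part of these cells and regions in the members' values was not tested. In such bulk tissue, fewer cells of a type and less RNA per cell cannot be told apart. Nex_cKO replicate 3 stood apart, with 41.6% of its FPKM in rows without a gene name, against 2.33% to 19.4% in the other 2.5-month libraries.

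The strongest rows at 2.5 months were those of Cnih2 joined with Rab1b, the scaffold Dlg4 (PSD-95) and the obligatory NMDA subunit Grin1. Cnih2 is a cornichon, which speeds AMPA receptor export and slows its deactivation. Its own rank at 2.5 months cannot be read from the joined row. In 2.5-month controls the Cnih2 and Rab1b locus averaged 264 FPKM ± 2.85 (SD, n = 3), Dlg4 253 ± 8.57 and Grin1 184 ± 11.5. Gria2 followed at 95.4 ± 5.34 and Grik5, a high-affinity kainate subunit, at 80.8 ± 4.02. Each of these 5 lay above the next in every control library, whereas the levels of Neto1, Grm3, Grm5, Grid1 and Grm7, at 17.0 to 20.4 FPKM, overlapped with their neighbours in the order. At the foot of the order, Grin3a averaged 2.36 FPKM and Grin3b 0.905.

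In 3-month controls the order differed: Cnih2 averaged 142 FPKM ± 2.07 (SD, n = 2), the scaffold Shank1 92.2 ± 7.74 and Dlg4 58.7 ± 6.07. The levels of Dlg4 and Grik5 overlapped there, and Grin1 stood sixth among members at 42.9 ± 0.205. The tables were built on different gene models, and levels were therefore compared only within a table. Grin3b, a glycine-binding NMDA subunit, was under the filter in both tables and was not tested. It read 1.21, 0.820 and 0.679 FPKM in Nex_Ctrl and 0.476, 0.400 and 0.531 in Nex_cKO libraries, and at most 7 reads in any 3-month library.

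**Figure D1:**
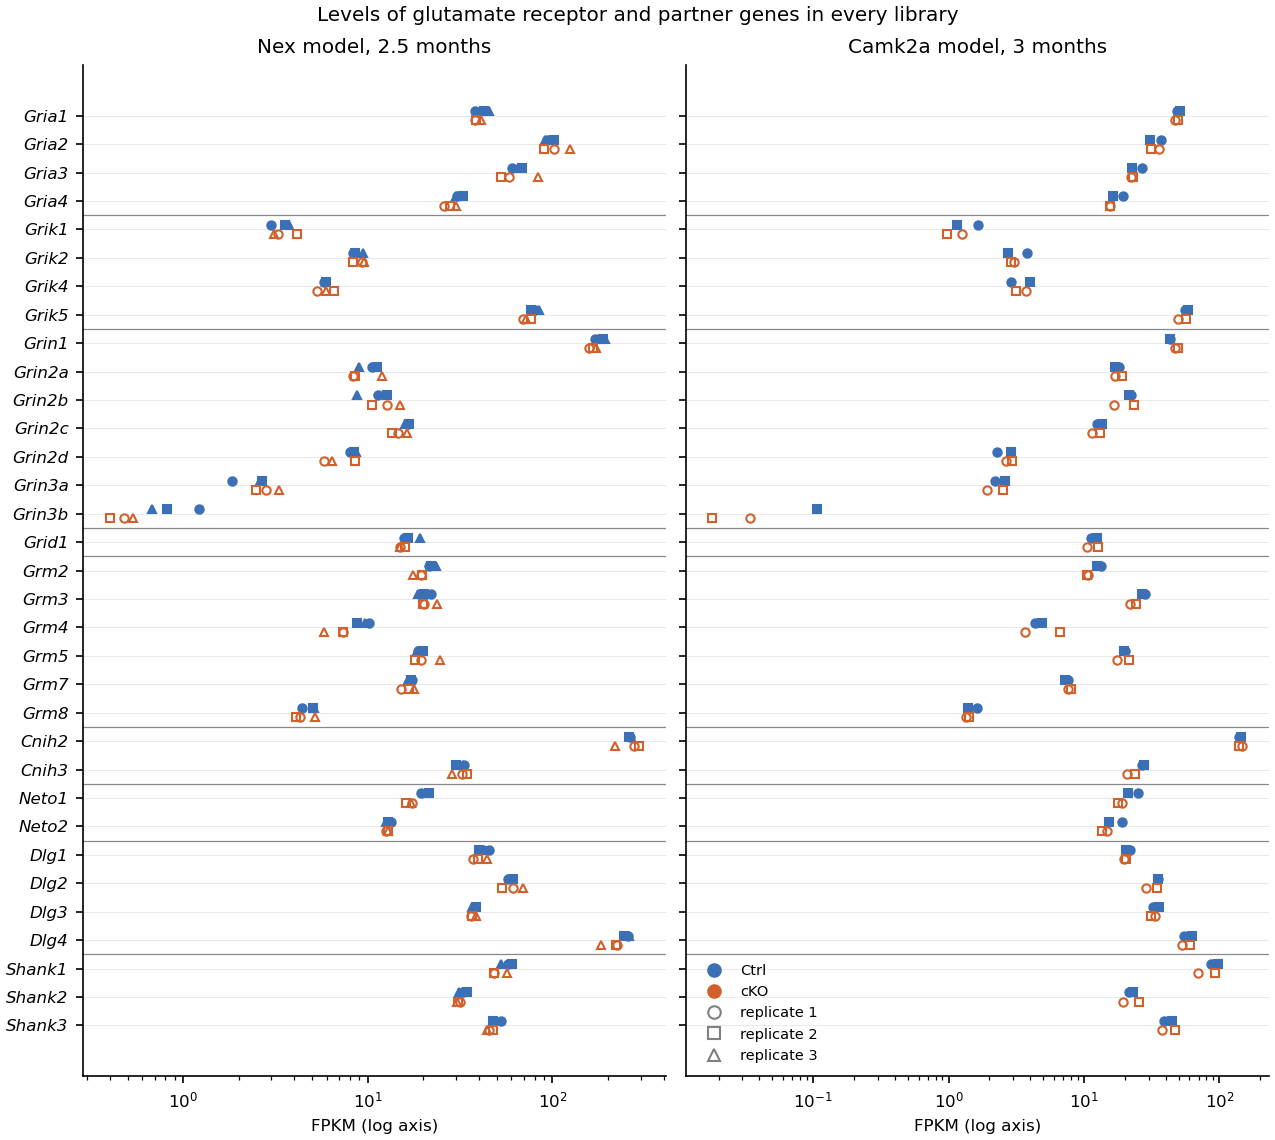
FPKM of each member (log axis) in every library of the Nex model (left) and the Camk2a model (right), with controls filled, knockouts open, and 1 marker shape per replicate. Rows are grouped by role. The Cnih2 and Rab1b locus, Dlg4 and Grin1 lie highest at 2.5 months. Grin3b lies lowest in both tables, and its control library at 0 is not drawn.

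The question put to each member was whether its level differed between knockout and control cortex. Values were compared on the log2(FPKM + 1) scale with limma. Benjamini-Hochberg adjustment covered every tested gene of a table, with a threshold of 0.05. The added 1 makes the changes of low genes smaller than their FPKM ratio.

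In the Nex model, 0 of 32 tested members were higher, where 4.47% of 12528 tested genes were, and 1 was lower, where 4.06% of genes were. Counting members whose 2 groups did not overlap gave 0 higher, against 11.5% of all genes, and 7 lower, against 18.9%. At an unadjusted p under 0.05 there were 4 members, Grm2, Grm4, Neto1 and Dlg4, where 23.5% of all genes had such a p. The estimated change was negative for 23 of 32 members, where 59.5% of all genes had a negative change. The median log2 change was -0.08 over members and -0.04 over all genes. Rescaling by the median ratio shifted members and all genes alike, to medians of -0.038 and -0.0019. With quantile normalization the medians were -0.0068 and -0.015, and under either scaling 17 of 32 members were negative. On the log2(FPKM + 1) scale, the 95% interval of the change lay inside 1.5-fold for 31 of 32 members, all but Grm4, and for 82.2% of all genes. For low genes such as Grin3a, at 2.36 FPKM in controls, this bounds the FPKM ratio less tightly.

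In the Camk2a model, 0 of 32 tested members were higher and 0 lower, where 0% of 12919 genes passed in either direction. At an unadjusted p under 0.05 there were 3 members, Grm2, Cnih3 and Neto1, where 6.96% of all genes had such a p, and the smallest adjusted p among members was 0.650 by limma. Changes ran from -0.31 to 0.17 on the log2 scale, with a median of -0.07 over members and -0.01 over all genes. Groups did not overlap for 2 members with higher knockout values, Grin1 and Grm7, where 16.2% of all genes did so. They did not overlap for 8 members with lower values, where 21.1% of all genes did so: Gria4, Grm2, Grm3, Cnih3, Neto1, Neto2, Dlg1 and Dlg2. On the log2(FPKM + 1) scale, the interval lay inside 1.5-fold for 29 of 32 members, all but Grik1, Grm4 and Neto1, and for 80.2% of all genes. Changes were negative for 23 of 32 members, where 52.5% of all genes had a negative change. Camk2a_cKO replicate 1 was the lowest of the 4 libraries for 19 members, and for 31.1% of all genes. With single libraries left out, 18 (without Camk2a_cKO replicate 1) to 26 (without Camk2a_cKO replicate 2 or Camk2a_Ctrl replicate 1) members were negative. Fitting the recovered reads with limma voom also called 0 members. In that fit 18 of 32 members were negative, with a median change of -0.018 over members and 0.046 over all genes. With quantile normalization 24 members were negative, and with median ratio rescaling 23.

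**Figure D2:**
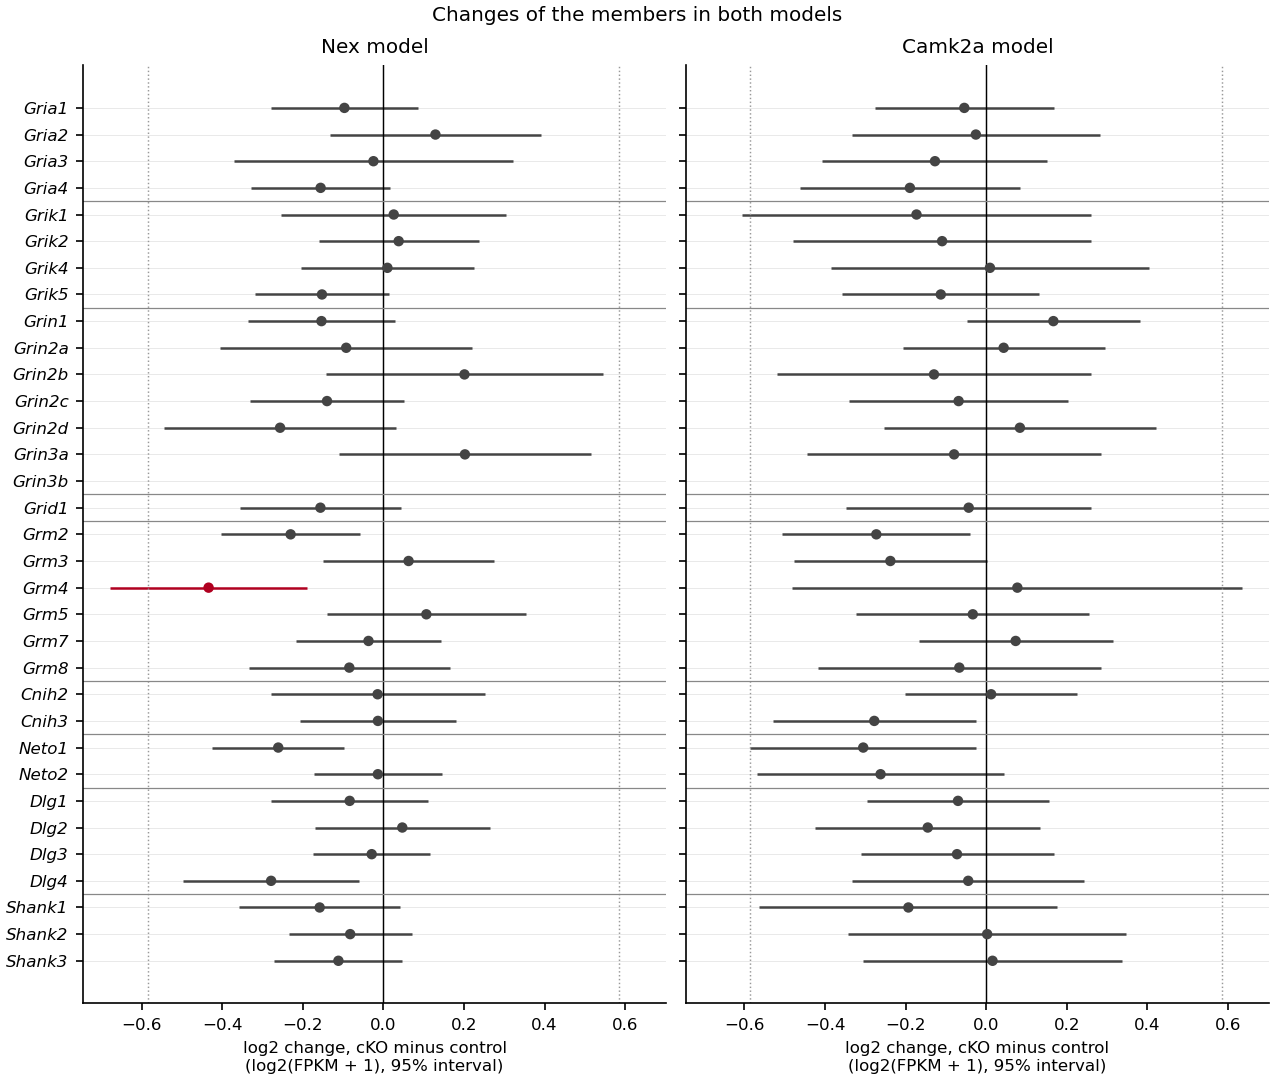
Log2 change of each tested member, knockout minus control on the log2(FPKM + 1) scale, with its 95% interval from limma, in the Nex model (left) and the Camk2a model (right). Dotted lines mark a change of 1.5-fold on that scale. Grm4 in the Nex model, drawn in red, is the member whose adjusted p was under 0.05, and Grin3b was not tested.

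Among the AMPA receptor pore subunits, no member passed in either model. Gria2 encodes the subunit whose edited form makes the channel impermeable to calcium. It read 93.9, 101 and 91.0 FPKM in Nex_Ctrl libraries and 102, 89.6 and 124 in Nex_cKO libraries. The knockout values spanned the controls, and the highest was that of Nex_cKO replicate 3, which was also the highest of all 6 for Gria3, at 83.6 FPKM against 52.9 to 68.1 elsewhere. The log2 change of Gria2 was 0.13 (SE 0.12, adjusted p = 0.548 by limma).

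Gria4, which encodes a subunit with fast kinetics found in many interneurons, read 30.6, 32.8 and 30.2 FPKM in Nex_Ctrl and 26.0, 27.8 and 29.9 in Nex_cKO libraries. All knockout values lay below all control values, the closest pair being replicate 3 of each group. At 3 months it read 19.5 and 16.4 in controls and 15.6 and 15.6 in knockouts, again without overlap. The log2 changes were -0.16 (SE 0.08, adjusted p = 0.260) and -0.19 (SE 0.11, adjusted p = 0.817) by limma, so neither passed. Gria1, whose product carries much of activity-dependent AMPA receptor insertion, had log2 changes of -0.10 and -0.05, with overlapping groups in both models.

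Subunit shares of the summed Gria1 to Gria4 FPKM were used as a measure of composition that does not depend on library scaling. They were taken from the main row of each gene. The Gria2 share was 42.1%, 41.4% and 39.2% in Nex_Ctrl and 45.6%, 42.9% and 44.5% in Nex_cKO libraries. Every knockout library lay above every control. An exact permutation test gave p = 0.1, two-sided, the smallest p that 3 against 3 allows. After adjustment over 11 quantities of the model it was 0.44. A second Gria2 row, at 24.9 to 41.7 FPKM in these libraries, was left out of the shares. With rows of a name summed, the mean Gria2 share was 47.0% in controls and 50.8% in knockouts (exact permutation p = 0.1). The Gria1 share was 18.0% ± 1.35 in controls and 16.7% ± 1.88 in knockouts (SD, n = 3 each; exact permutation p = 0.5), within the spread of the libraries. In the Camk2a model the Gria2 share was 26.8% ± 1.82 and 27.9% ± 2.61 (SD, n = 2 each; exact permutation p = 0.667).

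The cornichons, which accompany AMPA receptors, did not pass either. The Cnih2 and Rab1b locus read 263, 261 and 267 FPKM in Nex_Ctrl and 276, 296 and 218 in Nex_cKO libraries, with replicate 3 below all other libraries and the other two above them. Cnih3 read 33.2, 30.1 and 32.6 against 32.4, 34.4 and 28.4 FPKM, again with replicate 3 lowest. At 3 months, Cnih3 read 27.0 and 27.7 FPKM in controls and 20.9 and 24.0 in knockouts, without overlap, for a log2 change of -0.28 (SE 0.10, adjusted p = 0.674 by limma). Its change in the Nex model was -0.01, and the difference between the models was not called (0.26, SE 0.14, adjusted p = 0.425 by limma).

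NMDA receptors combine Grin1 with GluN2 subunits, of which Grin2b dominates early in life and Grin2a later, and with Grin2d in many interneurons. Grin1 read 171, 189 and 192 FPKM in Nex_Ctrl and 158, 166 and 171 in Nex_cKO libraries, the highest knockout value just exceeding the lowest control. At 3 months the order was the opposite, with 42.8 and 43.1 in controls and 46.9 and 49.7 in knockouts. The log2 changes were -0.15 (SE 0.08) and 0.17 (SE 0.09), and the difference between them was -0.32 (SE 0.11, adjusted p = 0.259 by limma). At an unadjusted p under 0.05 the change differed between the models for 1 of 30 members, Grin1. After adjustment it differed for 0 of 30, where 0.554% of all genes differed.

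The Grin2d main row read 7.98, 8.39 and 8.67 FPKM in Nex_Ctrl and 5.77, 8.52 and 6.42 in Nex_cKO libraries. Nex_cKO replicate 2 lay among the controls and the other two below them, and the log2 change was -0.26 (SE 0.13, adjusted p = 0.263 by limma). Without that library the change was -0.40 and passed, with an adjusted p of 0.0404. At 3 months Grin2d read 2.28 and 2.89 FPKM in controls and 2.65 and 2.92 in knockouts. Grin2a, Grin2b and Grin2c had log2 changes of -0.09, 0.20 and -0.14 in the Nex model, none of them called, and Grin3a had 0.20.

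The 2.5-month table, which gives no positions, lists 8 member names in a second row of lower level, and these were tested in a fit that kept every named row, added after the values were seen. Of 7 second rows tested, 2 fell and 0 rose, where 3.34% of the 13246 rows fell. The 2 were those of Grin2a and Grin2d, and that of Grin2d reached FPKM 1 only in its controls. At a minimum of FPKM 5 neither was tested. The second Grin2a row read 3.93, 4.74 and 5.85 FPKM in Nex_Ctrl and 2.94, 2.75 and 2.92 in Nex_cKO libraries. It fell by 0.58 on the log2 scale (SE 0.13, adjusted p = 0.0342 by limma), while the main row, at 10.5, 11.2 and 8.98 against 8.35, 8.54 and 11.9, overlapped. Leaving out single libraries gave the second row an adjusted p of 0.0276 to 0.111, past the threshold only without Nex_Ctrl replicate 1.

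The second Grin2d row read 1.77, 1.99 and 1.70 FPKM in controls and 0.544, 0.886 and 0.630 in knockouts, a fall of 0.74 on the log2 scale (SE 0.13, adjusted p = 0.0106 by limma). It passed the filter of FPKM 1 only through its control libraries. Tested without a filter it had an adjusted p of 0.0116, and with single libraries left out 0.0118 to 0.0630, missing the threshold without Nex_Ctrl replicate 1 or replicate 2. Which transcripts of either gene a second row stands for is not given in the sources used here.

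**Figure D3:**
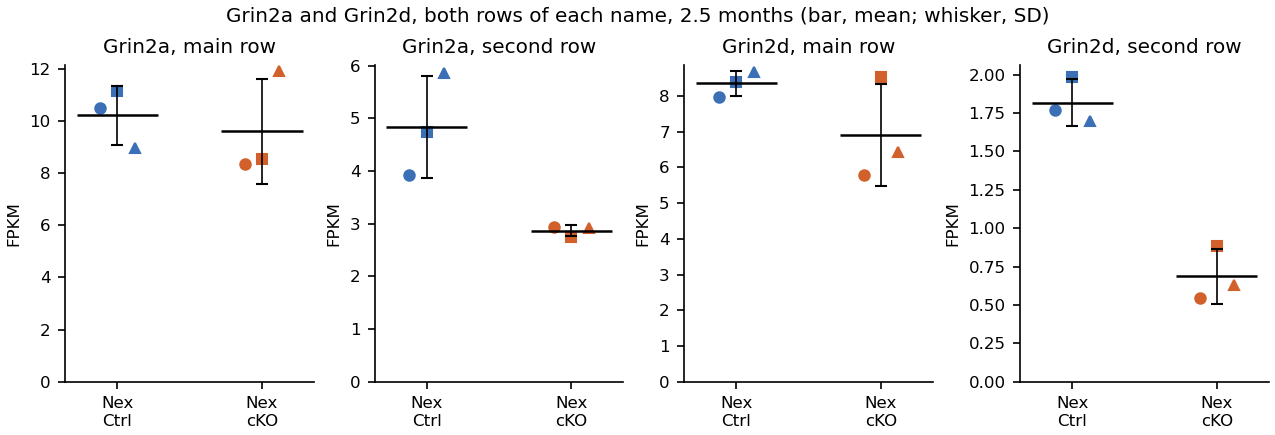
FPKM of the main and the second row of Grin2a and of Grin2d in the 2.5-month libraries, with the mean (bar) and SD (whisker) of each group, blue for controls and orange for knockouts, and circles, squares and triangles for replicates 1 to 3. The groups overlap in both main rows, and in both second rows every knockout library lies below every control.

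The log2 ratio of Grin2a to Grin2b, taken from the main rows, was -0.11, -0.18 and 0.03 in Nex_Ctrl and -0.60, -0.30 and -0.33 in Nex_cKO libraries. All 3 knockout libraries lay below all controls, including Nex_cKO replicate 3, for a difference of -0.32 with an exact permutation p of 0.1, the smallest possible, and 0.44 after adjustment. With both rows of each gene summed, an alternative added after the values were seen, the means were -0.31 ± 0.10 and -0.79 ± 0.15 (SD, n = 3 each; exact permutation p = 0.1). At 3 months the ratio was -0.30 and -0.34 in controls and 0.03 and -0.30 in knockouts, in the opposite direction, with an exact permutation p of 0.333, the smallest that 2 against 2 allows.

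**Figure D4:**
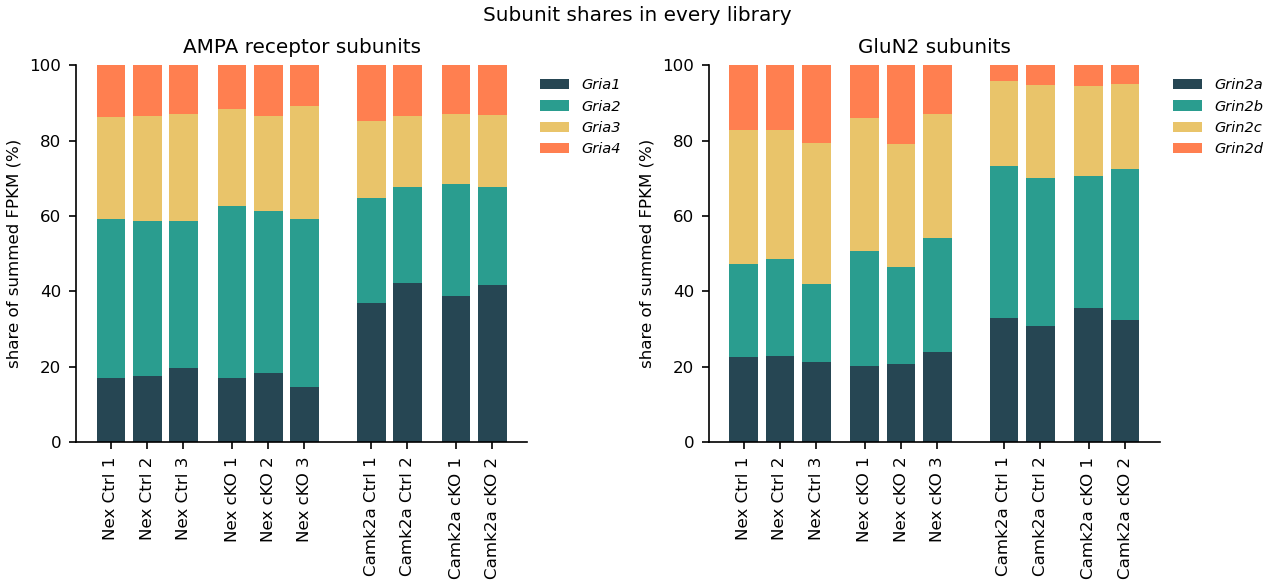
Share of each subunit (percent of the summed FPKM of main rows) among Gria1 to Gria4 (left) and Grin2a to Grin2d (right), with 1 bar per library. The Gria2 share of 42.9% to 45.6% in Nex_cKO libraries lies above the 39.2% to 42.1% of Nex_Ctrl libraries, and the tables of the 2 ages differ in their shares.

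Kainate receptor subunits were mostly low, with Grik1, Grik2 and Grik4 between 2.97 and 9.48 FPKM over all Nex libraries. Grik5, which joins other kainate subunits to form high-affinity receptors, read 80.6, 77.0 and 85.0 FPKM in Nex_Ctrl and 69.3, 76.8 and 71.8 in Nex_cKO libraries. The highest knockout value lay just under the lowest control. Its log2 change of -0.15 (SE 0.07, adjusted p = 0.252 by limma) did not pass, and at 3 months it was -0.11 (SE 0.10), with overlap. The other three kainate members had changes of 0.01 to 0.04 in the Nex model.

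Neto1 encodes a transmembrane partner of kainate receptors that also associates with NMDA receptors. It read 19.4, 21.3 and 20.4 FPKM in Nex_Ctrl and 17.3, 16.1 and 17.2 in Nex_cKO libraries. At 3 months it read 25.0 and 21.2 in controls and 19.2 and 17.7 in knockouts. Every knockout library of both models lay below every control of its table. The log2 change was -0.26 (SE 0.07, adjusted p = 0.0602) in the Nex model and -0.31 (SE 0.12, adjusted p = 0.684) in the Camk2a model, both by limma. Its paralogue Neto2 had a change of -0.01 in the Nex model, with values of 12.6 to 13.4 FPKM in all 6 libraries, and -0.26 (SE 0.13, adjusted p = 0.753 by limma) at 3 months, where groups did not overlap. Grid1, a delta receptor subunit that binds cerebellins at synapses, read 15.6, 16.5 and 19.2 FPKM in Nex_Ctrl and 14.9, 15.8 and 15.0 in Nex_cKO libraries, which overlapped.

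Grm4 encodes a group III metabotropic receptor (mGlu4) of nerve terminals, known for its abundance in cerebellar granule cells. It lies at chr17:27422387-27521403 on the minus strand of GRCm38. It read 10.1, 8.76 and 9.69 FPKM in Nex_Ctrl and 7.34, 7.35 and 5.76 in Nex_cKO libraries. The knockout libraries all lay below the controls, with replicate 3 lowest. Cerebellar markers summed to at most 0.123 FPKM in these libraries. Hippocampal and thalamic sums did not overlap between the groups, and striatal sums did. The part of any region in the Grm4 values was not tested. Grm4 fell by 0.43 on the log2 scale (SE 0.11, adjusted p = 0.0422 by limma), a drop of 28.4% in mean FPKM. The call was narrow. With single libraries left out the adjusted p ran from 0.0413 to 0.152 and passed only without Nex_cKO replicate 2, and without Nex_cKO replicate 3 the change was -0.33 (adjusted p = 0.0520 by limma). With quantile normalization it was 0.0611, and with median ratio rescaling 0.0601. At 3 months Grm4 read 4.38 and 4.89 FPKM in controls and 3.65 and 6.59 in knockouts, which spanned the controls. The difference between the models was -0.51 (SE 0.25, adjusted p = 0.396 by limma) and not called.

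Grm2 encodes a group II receptor (mGlu2) that lowers release at glutamatergic terminals. It read 21.5, 22.0 and 23.5 FPKM in Nex_Ctrl and 19.5, 19.7 and 17.6 in Nex_cKO libraries. At 3 months it read 13.4 and 12.5 in controls and 10.6 and 10.4 in knockouts. The groups did not overlap in either model, and the mean was lower by 15.4% and 18.6%. The log2 changes were -0.23 (SE 0.08, adjusted p = 0.107) and -0.27 (SE 0.10, adjusted p = 0.650) by limma. Its closest relative Grm3, which is largely astrocytic, had changes of 0.06 in the Nex model and -0.24 (SE 0.10, adjusted p = 0.716 by limma) in the Camk2a model. Astrocyte markers summed to 574 to 632 FPKM in Nex_Ctrl, 622 to 668 in Nex_cKO, 392 to 427 in Camk2a_Ctrl and 423 to 446 in Camk2a_cKO libraries, and their part in the values of Grm3 was not tested. Grm5, a group I receptor, and the group III receptors Grm7 and Grm8 had log2 changes of 0.11, -0.04 and -0.08 in the Nex model.

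**Figure D5:**
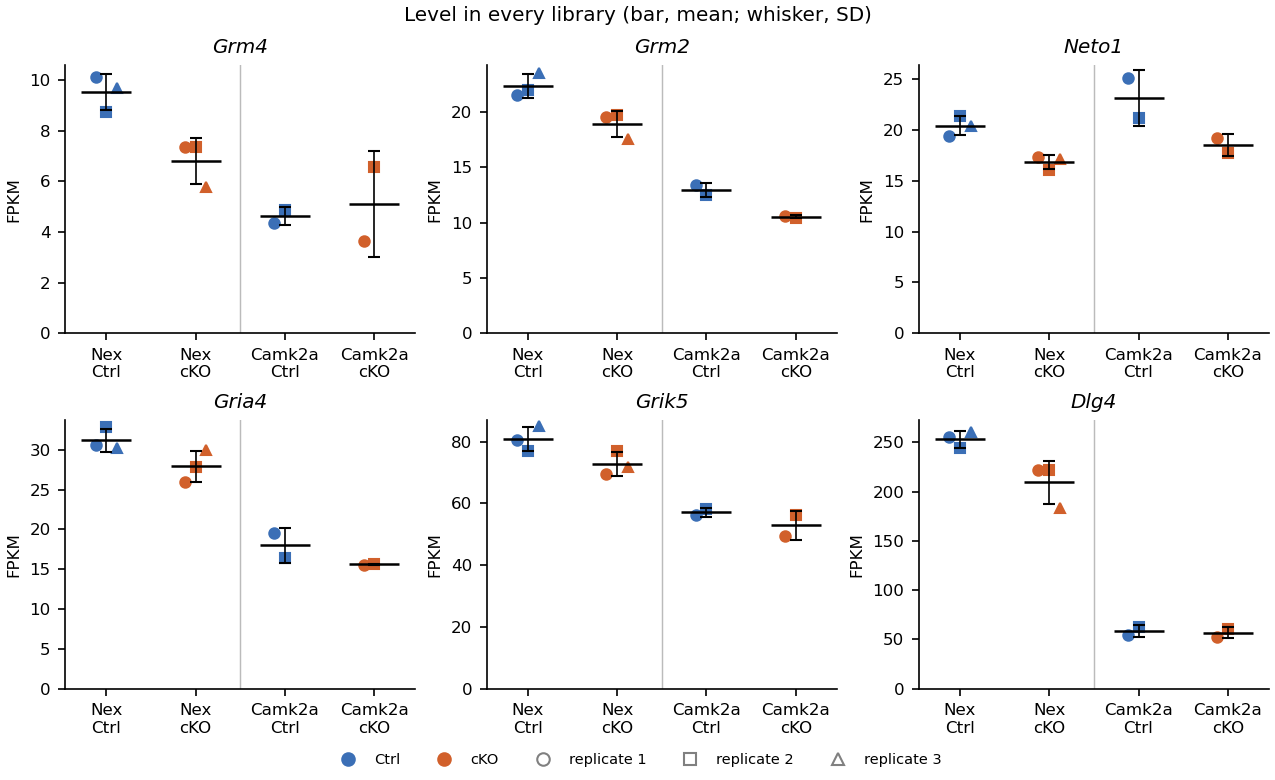
FPKM of Grm4, Grm2, Neto1, Gria4, Grik5 and Dlg4 in every library, with the mean (bar) and SD (whisker) of each group and a grey line between the 2 tables. For Grm2, Neto1 and Gria4 every knockout library lies below every control of its table, while Grm4 does so only at 2.5 months.

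Among genes tested in both tables, groups did not overlap with lower knockout values in both models for 3 of 30 members, Gria4, Grm2 and Neto1, where 5% of all genes did so, and with higher values for 0 of 30, where 2.09% did. The models used separate libraries throughout. Changes that differed between the models numbered 0 of 30, where 0.554% of 10116 genes differed. Negative changes in both models were found for 15 of 30 members, where 32.9% of all genes had them. Changes were opposite in sign for 14 of 30 members, and for 5056 of 10116 genes. The changes of the 2 models had a Pearson correlation of -0.15 over members and 0.23 over all genes. Under median ratio rescaling or quantile normalization, 17 of 32 members were negative in the Nex model. The count of members negative in both models was not tested under those scalings. Averaged over both models in a single fit, chosen after the values were seen, 2 of 30 members fell, where 1.65% of genes did, and 0 rose, where 1.64% did. Neto1 fell by 0.28 (SE 0.06, adjusted p = 0.0343) and Grm2 by 0.25 (SE 0.06, adjusted p = 0.0385), by limma. Neither passed with quantile normalization (adjusted p = 0.102 and 0.0750) or median ratio rescaling (0.0672 and 0.0645), and leaving out single libraries raised the values to at most 0.173 and 0.176. Without Nex_cKO replicate 3 both passed, at 0.0322 and 0.0432 by limma, and without Nex_cKO replicate 2 only Grm2 did, at 0.0417. Neither passed without any other single Nex library, nor with a replicate block (0.0738 and 0.121 by limma).

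The promoters of Grm2 and Gria4 are shown because the groups of both genes did not overlap in either model. Each run holds the 250 bases before the start site in the RefSeq promoter table (GRCm38.p6), at chr9:106656110-106656359 for Grm2 and chr9:4796235-4796484 for Gria4, both on the minus strand and read 5′ to 3′. Capitals mark the GC box GGGCGG, searched on both strands.
Grm2: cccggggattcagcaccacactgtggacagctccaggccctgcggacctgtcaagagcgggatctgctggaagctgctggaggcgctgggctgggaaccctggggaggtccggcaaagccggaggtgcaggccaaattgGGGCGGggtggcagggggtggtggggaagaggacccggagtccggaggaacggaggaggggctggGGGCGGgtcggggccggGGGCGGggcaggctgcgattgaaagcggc
Gria4: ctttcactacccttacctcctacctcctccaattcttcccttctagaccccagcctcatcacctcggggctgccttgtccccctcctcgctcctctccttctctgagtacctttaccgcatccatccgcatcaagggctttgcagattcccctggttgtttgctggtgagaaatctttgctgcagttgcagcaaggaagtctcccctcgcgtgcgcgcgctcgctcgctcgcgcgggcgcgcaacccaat
The Grm2 window held 3 GC boxes and 16 CpG dinucleotides, and the Gria4 window held 0 and 16. RefSeq promoters were matched for 21 of the 33 members, with 33 start sites in all, of which 48.5% held the motif, against 32.7% of all 32851 promoters of the table. A match is a description of the letters.

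The scaffolds tie receptors to the postsynaptic density. Dlg4 (PSD-95), the most abundant of its family, read 255, 244 and 261 FPKM in Nex_Ctrl and 222, 222 and 184 in Nex_cKO libraries, with replicate 3 lowest and no overlap. Its log2 change was -0.28 (SE 0.10, adjusted p = 0.122 by limma), and -0.19 without Nex_cKO replicate 3. At 3 months Dlg4 overlapped, at 54.4 and 63.0 against 52.8 and 60.9 FPKM. Dlg1, Dlg2 and Dlg3 had changes of -0.08, 0.05 and -0.03 in the Nex model. Shank1 read 57.2, 60.4 and 52.9 FPKM in Nex_Ctrl and 48.0, 48.1 and 56.5 in Nex_cKO libraries, where replicate 3 lay among the controls. The 3 SHANK genes had log2 changes of -0.08 to -0.16, none called, and Shank3 did not overlap, at 47.8 to 52.4 against 44.0 to 47.5 FPKM.

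Libraries differed in ways shared by many members. Nex_cKO replicate 1 was the lowest of the 6 libraries for 12 of 32 members and the highest for 0, where it was lowest for 16.1% and highest for 10.3% of all genes. Nex_cKO replicate 3 was the highest for 11 members and the lowest for 7, where these shares were 24.2% and 32.7% of all genes. The members for which it was highest included Gria2, Gria3, Grin2b and Grm5, and those for which it was lowest included Dlg4, Cnih2, Grm2 and Grm4.

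Other genes of glutamatergic synapses were read from a list of 53 that excluded the members. In the Nex model 5 of 52 tested fell and 0 rose, where 4.06% and 4.47% of all genes did, and in the Camk2a model 0 of 49 passed in either direction by limma, with 4 at an unadjusted p under 0.05, near the 6.96% of all genes. Grik3, the kainate subunit set aside as a layer marker, read 10.4, 10.8 and 9.66 FPKM in Nex_Ctrl and 6.65, 6.98 and 5.44 in Nex_cKO libraries and fell by 0.62 (SE 0.10, adjusted p = 0.00616 by limma). Nptx2, a pentraxin that clusters AMPA receptors on interneurons and is induced by activity, fell from 39.3, 38.9 and 45.3 to 16.9, 27.5 and 17.2 FPKM. Cbln4 and Cbln2, cerebellins that bridge neurexins to delta receptors, fell by 0.97 and 0.49. The row joining Homer1, a scaffold that links group I receptors to SHANK proteins, with Jmy fell by 0.48. Grik3 is also among the 10 layer 6 and subplate markers, of which 4 fell, and the part of those cells in the fall of Grik3 was not tested. The knockout libraries of all 5 rows lay below the controls, and adjusted p ran from 0.00153 to 0.0192 by limma. Without Nex_Ctrl replicate 1 or Nex_cKO replicate 1 the Homer1 row did not pass, leaving 4. Without Nex_cKO replicate 2 there were 9 that fell, and Cacng5 passed as higher without Nex_cKO replicate 3 or with no intensity trend. In the Camk2a model Nptx2 passed as higher without Camk2a_cKO replicate 1, and Cbln2 as lower without Camk2a_cKO replicate 2.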

How the data were processed

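The authors deposited FPKM values of 10 RNA-seq libraries of total RNA in 2 tables, with the ages, genotypes and groups taken per the labels. Per the submitters' processing notes, cutadapt, STAR, Cufflinks 2.2.1 and DESeq2 were used with mm10 and GRCm38, with no role or order given. The 2.5-month table has 29610 rows with names only, and the 3-month one has 54532 with positions and lengths. In the 3-month table FPKM times length came in whole steps (100% of values, tolerance 0.1 step), which gave 16901717 to 20074933 recovered reads; the 2.5-month depth is unknown, and no detection limit is given for it. Where a name had several rows the row of highest mean was kept (1864 and 105 rows left out), and rows without a name were not tested.

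Genes reaching FPKM 1 in 3 (2.5-month) or 2 (3-month) libraries were fitted per table on log2(FPKM + 1) with limma 3.58.1 (intensity trend) in R 4.3.3, two-sided, with Benjamini-Hochberg adjustment over all genes tested. The difference and the average of the 2 models' changes were fitted on 10116 genes joined by name, 30 of them members; age, driver and table differ together between models, and these cannot be told apart. Ratios and shares were tested by exact permutation. The fits were tested on simulated data.

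Members and lists were chosen with earlier results of these data known. Full values went to members past the threshold and, within each role, to the member of highest level and of smallest p in the Nex model; the rest are given by range and count, and Grin2a, Grin2b, Cnih3, Neto2, Grm3 and Shank3 values were added after they were seen. Of the list of other synaptic genes, those past the threshold are named. Alternatives were another pseudocount (0.1), filters of FPKM 5 or none, quantile normalization, median ratio rescaling, no trend, robust moderation, a replicate block, limma voom on recovered reads, and leaving out each library.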

Additional observations from a re-analysis of the deposited data

How the results depend on the processing

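The count of 1 member lower in the Nex model became 0 without a filter, at a minimum FPKM of 5, with quantile normalization or median ratio rescaling, and with a replicate block or with every named row kept apart, and ranged from 0 to 2 when single libraries were left out. For Grm4, whose change kept its sign in all of these, the adjusted p was 0.0672 with no filter, 0.0516 with FPKM 5, 0.0698 with the replicate block and 0.0513 with every row kept. It passed with a pseudocount of 0.1, no intensity trend and robust moderation. The count of 2 members lower on average over both models became 0 with quantile normalization, median ratio rescaling or the replicate block and 1 with no intensity trend, and ranged from 0 to 2 when single libraries were left out. The second row of Grin2a had an adjusted p of 0.0638 with no filter and 0.0597 with the replicate block. The log2 ratio of Grin2a to Grin2b moved from -0.32 to -0.47 when rows of a name were summed. The counts of 0 members higher in the Nex model, 0 in either direction in the Camk2a model and 0 differing between the models held under every alternative run for them. Same-numbered samples of the Nex model did not deviate together (correlations of 0.02, -0.10 and -0.10). In the Camk2a model both correlations were 0.05. With 2 libraries a group these are a single value, which cannot decide on pairing. The replicate numbers were not taken to pair samples in either model. With 2 or 3 libraries a group, the 95% intervals of the members' changes reached from -0.68 to 0.54 in the Nex model and from -0.61 to 0.64 in the Camk2a model, and the depth behind the 2.5-month values is unknown.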
